A study of Homo sapiens with 2 samples.

Results

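The well-expressed long non-coding RNAs (lncRNAs) of NK92, an established human natural killer cell line, are described here with and without PPMX-T003, an antibody that blocks transferrin receptor 1, the receptor for iron carried by transferrin. The members were selected on their measured reads: a gene was taken when the deposited table lists it as lncRNA and its reads summed over both libraries reached 1000. The table lists 46427 genes, of which 14763 are lncRNA genes, and 124 of these reached 1000 reads. The 20 host genes of small nucleolar RNAs recognised by symbol (the numbered SNHG genes, GAS5, ZFAS1, DANCR and EPB41L4A-AS1) and 6 genes with a hyphenated readthrough symbol, whose transcripts join neighbouring genes, were left out. This left 98 members. LINC00888 is among them under its deposited symbol, although RefSeq GRCh38.p14 names it SNHG33, as a small nucleolar RNA host.

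Polyadenylated RNA was sequenced in strand-marking libraries from a pair of dishes of NK92 cells. The exposed dish was given 10 µg/mL PPMX-T003 for 6 h, and the unexposed dish was kept as long with 0 µg/mL. Until then the cells of both had shared a culture for 18 h, of which each dish received an equal part in fresh medium. There was 1 library per condition and no replicate, so every difference given here is a difference between these libraries, and no test was possible. The deposited columns carry the names 0 h and 6 h while the methods give both dishes equal time in culture, and a difference in harvest time cannot be told apart from the exposure. The unexposed library held 46766416 reads assigned to genes and the exposed library 43178462.

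LncRNAs are transcripts without a long open reading frame, and they act in different ways. Some hold nuclear bodies together, some present binding sites to proteins in the cytosol, some are cut into microRNAs, and many lie beside a protein-coding gene whose promoter they share. In lymphocytes the best known is MIR155HG, the precursor of miR-155, which activated cells make in larger amounts.

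Of the 10 most-read members 9 were below 0 in the exposed library, 7 of them with an interval off 0, where 52.3% of all genes with at least 1000 reads were below 0 and 32.1% had an interval wholly below it. Intervals narrow with reads, and these 10 are picked by reads, so more of them can be expected off 0. The remaining members together differed little. NORAD, OIP5-AS1, HCP5 and TUG1 were 1.11-fold to 1.18-fold lower, the differences of NORAD and TUG1 being smaller once a fit on length and GC content is removed. That of OIP5-AS1 was also smaller when the fit used the longest transcripts. NEAT1, second in reads, differed by less than its counting error with reads, but not with the deposited TPM, a level scaled by transcript length, or with that fit removed. MIR155HG and the antisense RNA LOC108783654 had the lowest ratios, and LOC100630923 and CTBP1-DT the highest.

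The members held 186636 reads in the unexposed library, 0.399% of its reads (95% Clopper-Pearson interval 0.397% to 0.401%). In the exposed library they held 164227 reads, a share with an interval of 0.379% to 0.382%. Levels are given as CPM, reads scaled to the size of the library. Fold changes are log2 ratios of CPM, exposed over unexposed, after scaling by the trimmed mean of log ratios (TMM). Each has a 95% interval from the Clopper-Pearson limits on the division of a gene's reads between the libraries, and these intervals cover counting error only. The summed reads of all members gave a log2 fold change of -0.067 (interval -0.077 to -0.058). Without the 10 members with the most reads, the other 88 summed to -0.012 (-0.025 to 0.00092). The 10 most-read members made up 46.6% of the members' reads in the unexposed and 44.5% in the exposed library, so the lower sum lay mainly with them. In RNA from whole dishes, fewer cells of a type and less RNA per cell cannot be told apart.

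Gene by gene, the members were spread on both sides of 0. Their median log2 fold change was -0.028, with quartiles at -0.15 and 0.12, and 55 of 98 (56.1%) were below 0. Over the 8359 genes of any kind with at least 1000 reads the median was -0.0098, with quartiles at -0.11 and 0.089, and 52.3% were below 0. With the deposited TPM the median of these genes was -0.055, so TPM values of the lists below share a lower background. The standard deviation across genes was 0.18 for the members and 0.16 for all these genes. Of the members, 41 lay within 0.1 of 0 on the log2 scale and 50 had an interval that spans 0. Only LOC100630923 was at least 1.5-fold higher, where 0.108% of all genes with at least 1000 reads passed that size, and 0 members were at least 1.5-fold lower, where 0.275% did. By the smaller measure of 25% more or 20% less, 4 members were higher (1.15% of all such genes) and 3 lower (2.73%). The interval lay wholly above 0 for 19 members (27.8% of all such genes) and wholly below 0 for 29 (32.1%). Counts of 0 to 4 in a set of 98 genes cannot be read against such small shares. The shares with an interval off 0 were no larger among the members than among all genes. Intervals widen as reads fall, however, and the members' reads were not matched to those of all genes. These shares therefore do not show whether the members differed less than other genes.

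**Figure D1:**
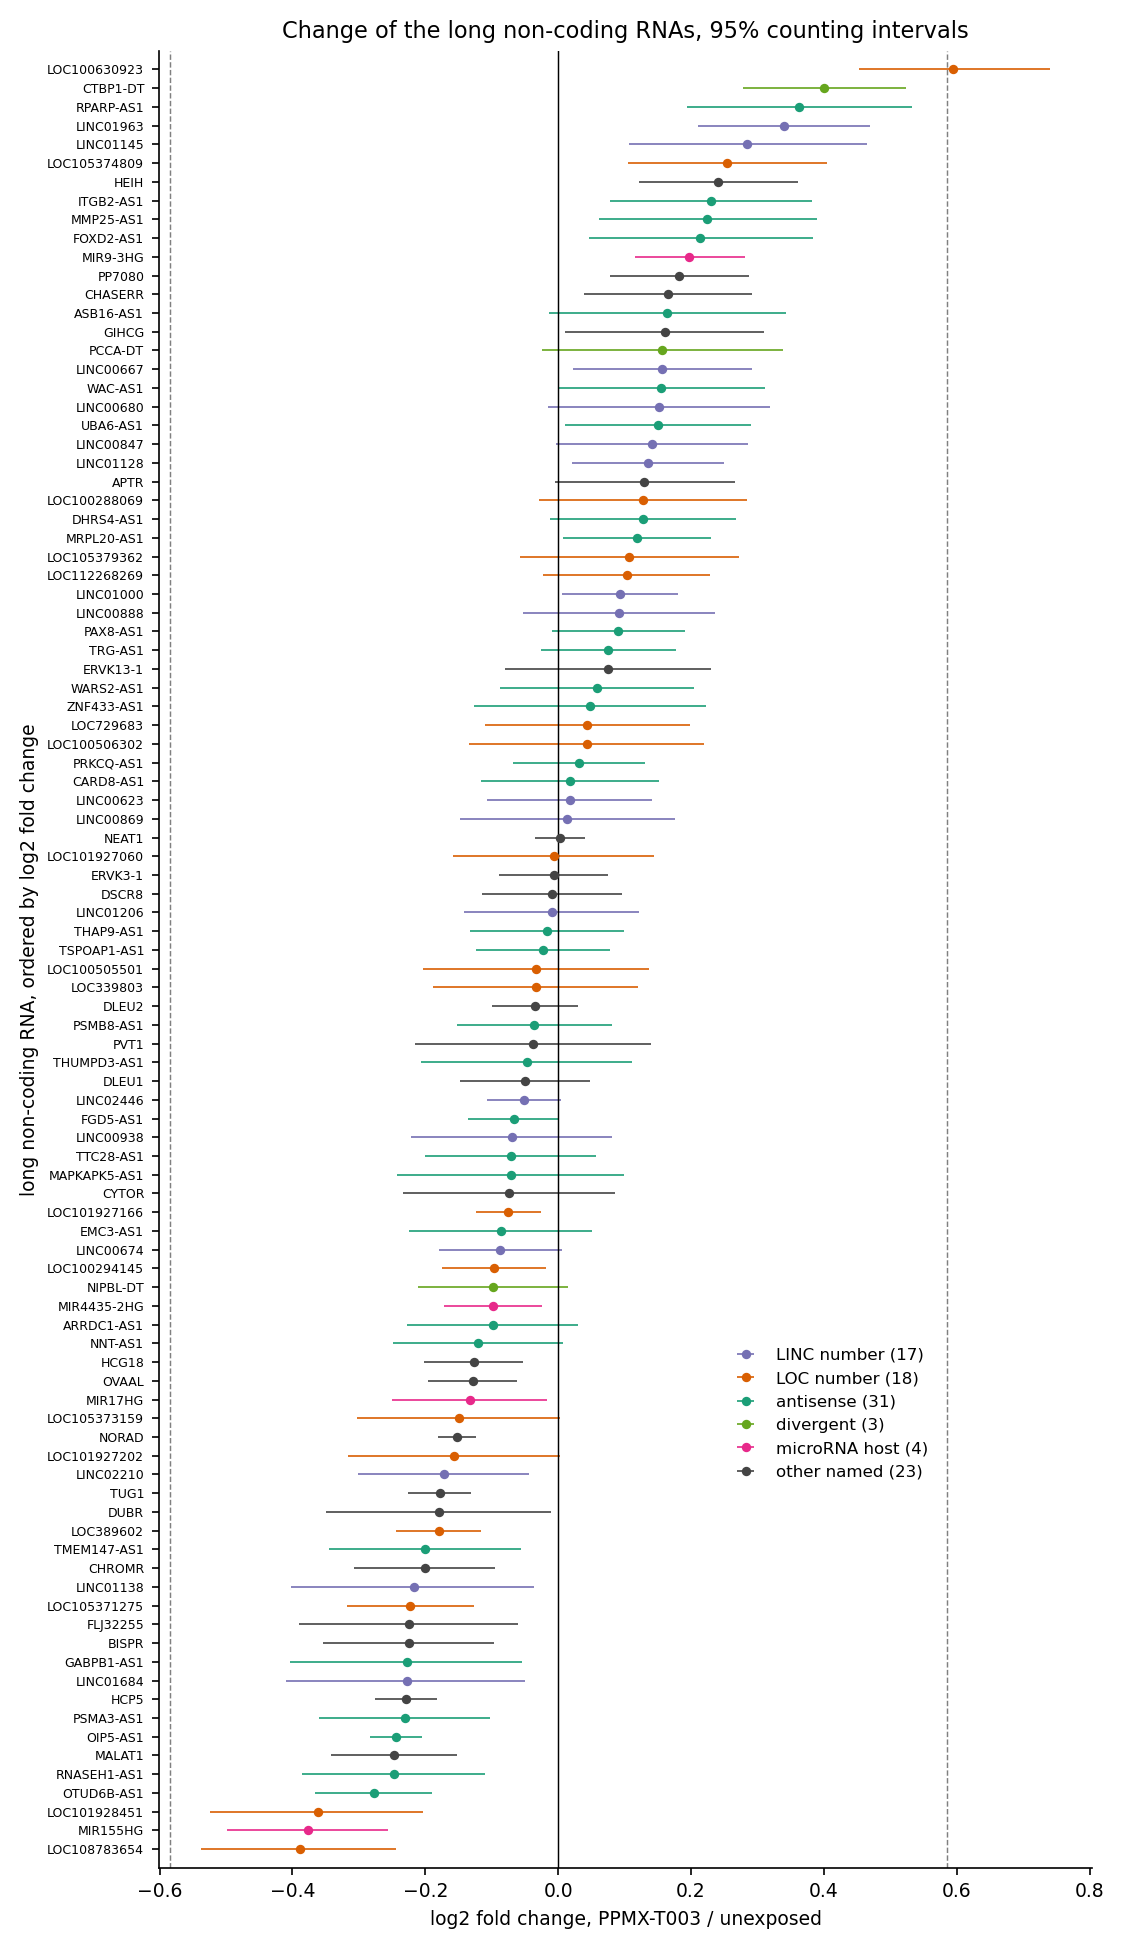
Log2 fold change of 96 of the 98 members (horizontal axis, PPMX-T003 over unexposed), 1 per line in order of size, with points at the ratio, bars for the 95% counting interval and colours for the kind of name; dashed lines mark 1.5-fold in either direction. Only LOC100630923, at 0.59, lies past a dashed line.

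The threshold of 1000 reads fell among genes of similar level. Just inside it were LINC01138 with 559 reads in the unexposed and 443 in the exposed library, PCCA-DT with 494 and 508, and LINC01145 with 485 and 545. Just outside were MSC-AS1 with 492 and 496 reads, ATXN1-AS1 with 554 and 423, and LINC00528 with 488 and 486. Both sides held genes that were higher and genes that were lower in the exposed library. Most lncRNA genes of the table were far below: 13214 had fewer than 20 reads, 11681 of them no read in either library, 838 had from 20 to 99 and 587 had at least 100 but fewer than 1000. The members ran from 485 to 21128 reads in the unexposed and from 443 to 17525 in the exposed library, and 53 of them had fewer than 2000 reads in sum.

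**Figure D2:**
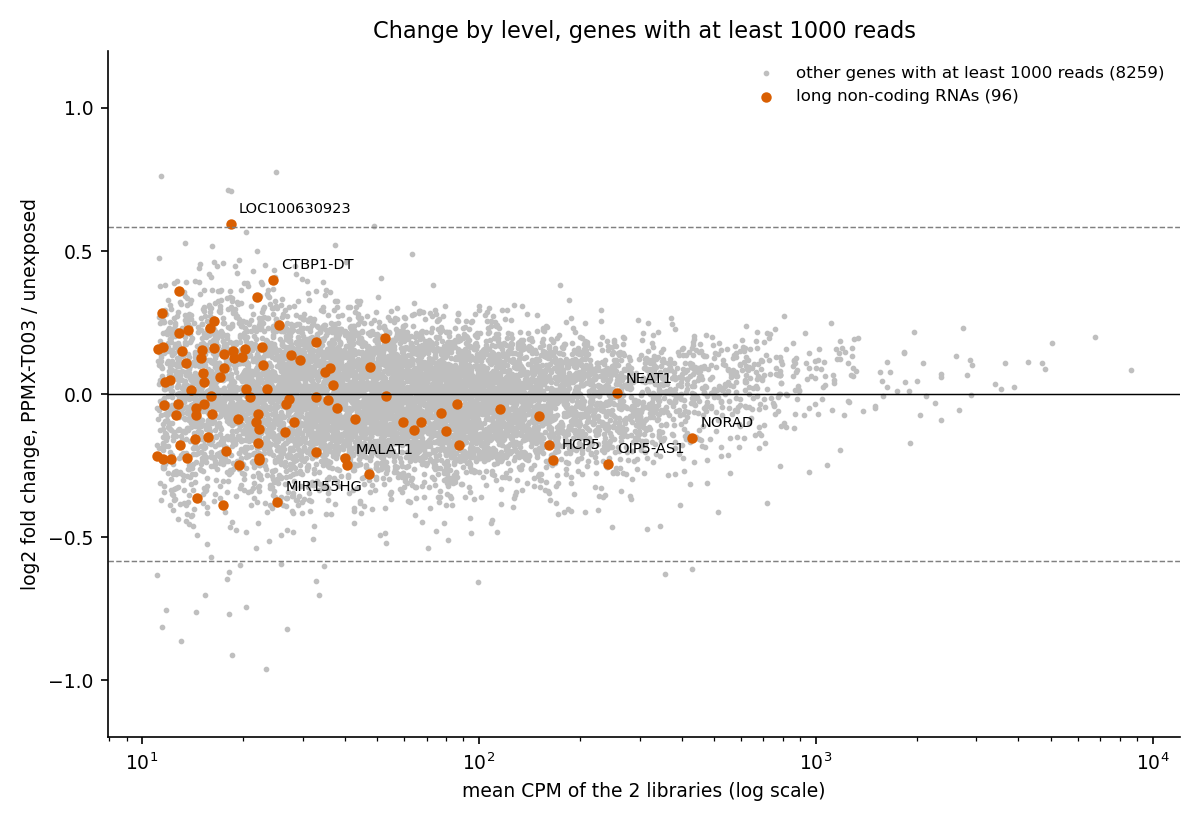
Log2 fold change (vertical axis, PPMX-T003 over unexposed) against mean CPM of both libraries (horizontal axis, log scale) for 96 of the 98 members in orange and 8259 other genes with at least 1000 reads in grey; 5 genes lie outside the plotted range of 1.2. The members lie within the cloud of other genes, and the 10 with the most reads, apart from NEAT1, lie below 0.

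The cells carried the markers of their label. All 12 natural killer lineage markers checked had at least 20 reads and 9 had at least 1000, with a summed level of 4382 CPM in the unexposed and 4851 CPM in the exposed library. IL2RB, the beta chain of the interleukin-2 receptor on which this line depends, was the most abundant of them by CPM (1202 and 1298). The defining T cell genes CD3D, CD3G and CD8B had 0 reads in both libraries, and CD4 had 4 and 0. CD28, a co-stimulatory receptor also on the T cell list, had 2252 and 1803 reads. MS4A1 of B cells had 0 reads in both, and CD79A had 14 and 12. The myeloid genes CD14 (0 and 7 reads), LYZ (2 and 0) and CSF1R (22 and 9) were near 0, and the erythroid, liver and fibroblast genes were at 0 in both. Apart from CD28, the marker genes of other cell types were thus at or near 0.

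Among lncRNAs of nuclear bodies and chromatin, 5 of the 22 listed were members: NEAT1, MALAT1, TUG1, CHASERR and PVT1. NEAT1, the RNA scaffold of paraspeckles, had 12048 reads in the unexposed and 11127 in the exposed library, a log2 fold change of 0.0025 (interval -0.035 to 0.040), and its sign turns under median-of-ratios scaling. It lay outside that interval with TPM (-0.11), with a fit on length and GC content removed (0.054) and with a fit on the longest transcripts, chosen after seeing the data (0.18). MALAT1, a nuclear speckle RNA, had 2068 and 1607 reads (-0.25, -0.34 to -0.15), or 1.19-fold lower. It was at -0.21 with the fit removed and at -0.11, outside its interval, with the longest-transcript fit removed. MALAT1, a neighbour of NEAT1 on chromosome 11, was below it in all of these settings, while the size of either value depends on the setting. The mature end of MALAT1, and of the long form of NEAT1, is made by RNase P and carries no poly(A) tail, so poly(A)-selected reads catch these RNAs incompletely, and the values hold for the part that was caught. By TPM NEAT1 was at 152 and 141 and MALAT1 at 11 and 9.

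TUG1, found in both nucleus and cytosol, had 8002 and 6520 reads (-0.18, -0.23 to -0.13). It was at -0.066 with the fit removed and at -0.078 with the longest-transcript fit removed, both outside that interval. CHASERR, whose transcription restrains its downstream neighbour CHD2, a chromatin remodeller, had 1001 and 1035 reads (0.17, 0.039 to 0.29). CHD2 itself had 8054 and 6230 reads (-0.25, -0.30 to -0.21). This pair thus lay on opposite sides of 0, each with an interval off 0. GC content was 53.7% for CHASERR and 43.3% for CHD2, and other genes of such GC content lean to the same sides. CHASERR was at 0.10 with the fit removed, within its interval, and shares an exon on its strand with AC013394.1. Whether CHASERR acted on CHD2 here was not tested. PVT1, the neighbour of MYC, had 551 and 495 reads, and its difference was not detectable at this depth (-0.037, -0.22 to 0.14). Over the 5 members, 2 were higher and 3 lower with a median of -0.037, and with median-of-ratios scaling or TPM 4 were lower. Of all genes with at least 1000 reads 52.3% were below 0, and 5 genes are too few to set against that share.

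The proteins that work on these RNAs were taken from gene lists. Of 46 listed paraspeckle proteins 38 had at least 1000 reads, of which 23 were higher and 15 lower (median 0.035; -0.0079 with TPM). RBM14, a protein that paraspeckles need, had 5748 and 5995 reads (0.18, 0.13 to 0.23), and CIRBP, a cold-induced RNA-binding protein, had 9493 and 9783 (0.16, 0.12 to 0.20). On the other side were TARDBP (-0.14), RBM7 (-0.15) and RBMXL1 (-0.16), named here after their values were seen. The interval lay wholly above 0 for 18 of the 38 genes and wholly below 0 for 9. Of all genes with at least 1000 reads 27.8% and 32.1% had such intervals. Intervals narrow with reads, and HNRNPA1 of this list alone had 88349 in the unexposed library. Reads were not matched to those of all genes, so these shares cannot be set against each other. Of 18 genes that process the 3′ end of MALAT1 and NEAT1 or export RNA, 17 had enough reads, 10 higher and 7 lower (median 0.011; -0.047 with TPM). NUDT21 and CPSF6, both of cleavage factor I, were at -0.12 each and the export receptor NXF1 at 0.12.

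Of the nuclear exosome, which degrades many lncRNAs, and its cofactors 26 of 28 genes had at least 1000 reads. Of these 10 were higher and 16 lower with a median of -0.064, where 52.3% of all genes with that many reads were below 0. The median was 0.0044 once a fit on length and GC content of the longest transcripts is removed. The interval lay wholly above 0 for 6 of the 26 and wholly below 0 for 11, against 27.8% and 32.1% of all such genes. Here too reads were not matched to those of all genes, so these shares cannot be set against each other. The scaffold ZFC3H1, which brings polyadenylated nuclear RNA to the exosome, was at -0.30, PABPN1, its partner at poly(A) tails, at 0.20 and the exosome subunit EXOSC1 at 0.22. Of 22 factors of nonsense-mediated decay all had enough reads, 12 higher and 10 lower, with a median of 0.00049 that is negative with library size, median-of-ratios scaling or TPM. The kinase SMG1 was at -0.31, EIF4A3 of the exon junction complex at 0.27 and SMG9, a subunit bound to SMG1, at 0.21. Both lists thus held named genes on either side of 0.

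In 2 of the 5 lists of lncRNAs, that of RNAs which act in the cytosol or as regulators with many copies (here regulator RNAs) and that of microRNA hosts, every member was below 0. Of 29 listed regulator RNAs 7 were members, and all 7 were lower in the exposed library under each of the 4 scalings and with TPM, with a median of -0.15, where 52.3% of all genes with at least 1000 reads were below 0. Of the 10 listed genes with that many reads 8 were lower. The 2 higher ones, SNHG1 (0.11, 0.054 to 0.18) and DANCR (0.11, 0.040 to 0.19), are not members because they were left out by symbol as hosts of small nucleolar RNAs. The interval lay wholly below 0 for NORAD, OIP5-AS1, TUG1 and GABPB1-AS1, and spanned 0 for FGD5-AS1, CYTOR and THUMPD3-AS1. Of all genes with at least 1000 reads 32.1% had an interval wholly below 0, and 7 genes are too few to set against these shares. When a fit on GC content and transcript length was removed, all 7 were below 0 with a median of -0.066, and 6 were when that fit used the longest transcripts. Of the 7, all but CYTOR have transcripts under the members' median GC content of 49.0%, and the median of the 7 was nearer to 0 with the fit removed.

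NORAD had the most reads of all members. It had 21128 reads in the unexposed and 17525 in the exposed library (451 and 406 CPM), a log2 fold change of -0.15 (interval -0.18 to -0.12). The value was -0.21 with TPM, -0.028 with the fit on length and GC content removed and -0.065 with the longest-transcript fit removed, each outside that interval, so its size depends on the setting. NORAD is a cytosolic RNA known for binding Pumilio proteins, which otherwise repress messages of chromosome segregation and DNA repair. Its transcript of 5339 bases in 1 exon, read from GENCODE 29, holds the Pumilio motif TGTANATA 15 times on the transcript strand, 10 times as TGTATATA, 4 times as TGTAAATA and 1 time as TGTACATA. Only 6 of 57133 gene names, NORAD included, have a transcript with as many. Among 9615 transcripts of at least 5000 bases the median was 1, and 0.0624% had at least as many as NORAD. Of 71 members found there by name 43 had none in any transcript, and the next after NORAD, NEAT1, had 6. To show what such a site looks like, the first of each of its 3 forms is given with 11 bases on either side. They run 5′ to 3′ on the minus strand of GRCh38, with only the motif of the named site in capitals. The bases before site 5 also hold the TGTATATA of site 4, in lower case. They lie in the exon of NORAD at chr20:36050182-36050211, chr20:36049702-36049731 and chr20:36049492-36049521.
NORAD site 1: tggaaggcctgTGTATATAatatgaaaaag
NORAD site 3: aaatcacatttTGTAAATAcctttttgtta
NORAD site 5: tgtgtatatagTGTACATAaaggacagacg

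Genes of proteins that act together with NORAD lay mostly below 0, though not under every setting. Of 12 listed NORAD partners 11 had at least 1000 reads, and 8 of the 11 were lower (7 with upper-quartile scaling), with a median of -0.10. All genes with at least 1000 reads had a median of -0.0098 with 52.3% below 0, and 11 genes are too few to set against that share. PUM2, a Pumilio protein, was at -0.21 and CNOT1, the scaffold of the deadenylase that Pumilio proteins recruit, at -0.14. With TPM 9 of the 11 were lower (median -0.17), where all genes with at least 1000 reads had a TPM median of -0.055. With the fit on length and GC content removed 8 were lower (median -0.041). With the longest-transcript fit removed, a setting chosen after seeing the data, 4 of the 11 were lower and the median was 0.026. No direction is therefore given for this group apart from the trend with length and GC content.

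OIP5-AS1, also called cyrano, is known for destroying miR-7 and for binding the stability factor HuR. It had 12305 and 9579 reads (-0.24, -0.28 to -0.21; -0.24 with the fit removed and -0.095 with the longest-transcript fit removed). OIP5, the gene on the other strand, had 1605 and 1754 reads (0.25, 0.15 to 0.34), so the pair lay on opposite sides of 0. GABPB1-AS1, antisense to a subunit of the transcription factor GABP, had 614 and 483 reads (-0.23, -0.40 to -0.055; -0.20 with the fit removed and -0.063 with the longest-transcript fit removed). FGD5-AS1 (-0.067, -0.14 to 0.0012), CYTOR (-0.074, -0.23 to 0.085) and THUMPD3-AS1 (-0.047, -0.21 to 0.11) had differences that were not detectable at this depth. The plot of levels by library sets NORAD, OIP5-AS1 and TUG1 beside the other members with the most reads or the largest differences.

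**Figure D3:**
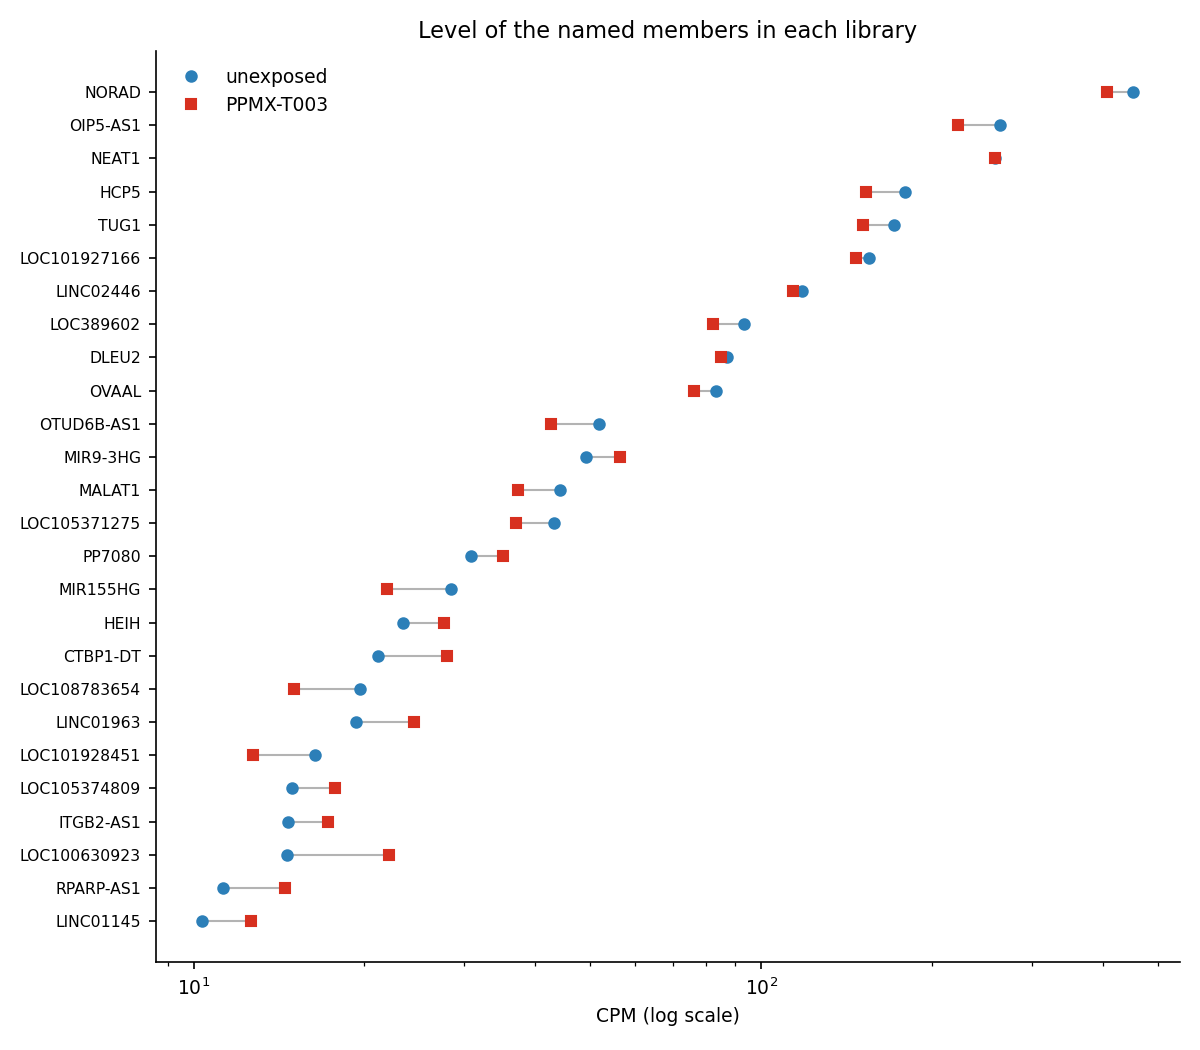
CPM (horizontal axis, log scale) in the unexposed (blue circles) and the exposed library (red squares) of the 10 members with the most reads and of the 10 higher and 10 lower ones with interval bounds farthest from 0. NORAD leads with 451 and 406 CPM, and the symbols of NEAT1 overlap.

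The promoters of NORAD and OIP5-AS1 are shown because both RNAs were lower and both hold CACGTG, the core of the E-box bound by MYC and related factors. CACGTG and CCGGAAG, the core of sites for ETS factors, are in capitals, the latter seen on the other strand as CTTCCGG. The windows are 300 bases from RefSeq on GRCh38.p14, 250 before and 50 after the start, at chr20:36050911-36051210 on the minus strand for NORAD and chr15:41283740-41284039 on the plus strand for OIP5-AS1. The gene OIP5-AS1 as a whole begins upstream of its window, at chr15:41282697, so the start used for it lies inside the gene.
NORAD promoter: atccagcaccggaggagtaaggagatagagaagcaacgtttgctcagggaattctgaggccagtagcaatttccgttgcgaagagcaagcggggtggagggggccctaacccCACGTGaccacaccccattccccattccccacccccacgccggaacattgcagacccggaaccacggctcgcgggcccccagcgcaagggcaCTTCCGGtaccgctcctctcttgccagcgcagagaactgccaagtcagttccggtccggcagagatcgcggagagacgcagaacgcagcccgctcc
OIP5-AS1 promoter: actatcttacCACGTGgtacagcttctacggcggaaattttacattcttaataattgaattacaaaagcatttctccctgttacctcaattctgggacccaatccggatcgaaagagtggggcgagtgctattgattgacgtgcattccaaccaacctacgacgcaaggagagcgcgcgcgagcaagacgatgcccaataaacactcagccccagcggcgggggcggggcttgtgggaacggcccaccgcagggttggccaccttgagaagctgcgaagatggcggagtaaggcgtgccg
Both strands of every promoter were searched. CACGTG was in 7.26% of 35116 promoters of all genes and in 6 of the 94 promoters (6.38%) of the 75 members with a promoter there, namely those of NORAD, OIP5-AS1, TUG1, DLEU2, HEIH and LOC112268269. CCGGAAG was in 10.3% of all promoters and in 17 of the 94 (18.1%). Of the 6 members with CACGTG, HEIH and LOC112268269 (0.10, -0.023 to 0.23) were above 0, and DLEU2 and LOC112268269 had intervals that spanned 0. A match of letters is a description and does not show that a factor binds.

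The microRNA hosts are listed with 23 genes, of which 4 were members: MIR155HG, MIR17HG, DLEU2 and MIR4435-2HG. All 4 were below 0 with a median of -0.12, 3 of them with an interval wholly below 0, and 3 of 4 were below 0 after removal of the fit. Of all genes with at least 1000 reads 52.3% were below 0 and 32.1% had an interval wholly below 0, and 4 genes are too few to set against these shares. Their microRNAs were not measured, because poly(A)-selected reads show the host transcript and not the mature form. The mature sequences of 9 microRNAs in 3 of these hosts are given to show what each host carries, from RefSeq on GRCh38.p14, 5′ to 3′, with the seed (bases 2 to 8), by which targets are recognised, in capitals.
miR-155-5p of MIR155HG: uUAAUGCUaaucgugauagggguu
miR-17-5p of MIR17HG: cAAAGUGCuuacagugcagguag
miR-20a-5p of MIR17HG: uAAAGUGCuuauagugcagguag
miR-18a-5p of MIR17HG: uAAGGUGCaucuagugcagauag
miR-19a-3p of MIR17HG: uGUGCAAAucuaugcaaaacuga
miR-19b-3p of MIR17HG: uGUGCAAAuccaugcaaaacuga
miR-92a-3p of MIR17HG: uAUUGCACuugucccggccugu
miR-15a-5p of DLEU2: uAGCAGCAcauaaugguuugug
miR-16-5p of DLEU2: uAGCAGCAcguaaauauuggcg
The 6 microRNAs of MIR17HG hold 4 seeds, since miR-17-5p and miR-20a-5p share AAAGUGC and miR-19a-3p and miR-19b-3p share GUGCAAA. Those of DLEU2 share AGCAGCA, and miR-155-5p shares its seed with none of the others. On GRCh38.p14 miR-155-5p lies at chr21:25573983-25574006 on the plus strand, and the MIR17HG group runs from miR-17-5p at chr13:91350618-91350640 to miR-92a-3p at chr13:91351361-91351382 on the plus strand. In DLEU2 miR-15a-5p lies at chr13:50049167-50049188 and miR-16-5p at chr13:50049027-50049048 on the minus strand.

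Of all members, MIR155HG had the interval farthest below 0 by its upper bound. It had 1331 reads in the unexposed and 945 in the exposed library (28.4 and 21.9 CPM), a log2 fold change of -0.38 (interval -0.50 to -0.26), or 1.30-fold lower. Its transcripts have 37.8% GC, in the range where most genes were lower, and it was at -0.27 with the fit removed and -0.35 with the longest-transcript fit removed, both within its interval. MIR17HG, the host of the MYC-driven miR-17-92 cluster, had 1304 and 1096 reads (-0.13, -0.25 to -0.016), just off 0, and was at -0.016 with the fit removed and -0.062 with the longest-transcript fit removed. DLEU2, which carries the seeds of miR-15 and miR-16 that restrain the cell cycle, had 4068 and 3661 reads and differed by no more than counting error (-0.035, -0.10 to 0.030; 0.085 after removal of the fit). MIR4435-2HG had 3268 and 2815 reads (-0.098, -0.17 to -0.025). It is a near copy of CYTOR, which had 692 and 606, so the division of reads between them is uncertain, and their summed reads gave -0.094 (-0.16 to -0.027). MIR9-3HG, a microRNA host by its name that the list does not hold, was higher with 2296 and 2428 reads (0.20, 0.11 to 0.28; 0.054 with TPM and 0.11 with the fit removed).

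The promoter of MIR155HG is given because this member's interval lay farthest below 0, at chr21:25561895-25562194 on the plus strand of GRCh38.p14, from RefSeq. Capitals mark AANNGAAA, a core bound by interferon regulatory factors (3 times, 1 of them on the other strand as TTTCCTTT), TGANTCA, the core of AP-1 sites, and TATAAA, the TATA box.
MIR155HG promoter: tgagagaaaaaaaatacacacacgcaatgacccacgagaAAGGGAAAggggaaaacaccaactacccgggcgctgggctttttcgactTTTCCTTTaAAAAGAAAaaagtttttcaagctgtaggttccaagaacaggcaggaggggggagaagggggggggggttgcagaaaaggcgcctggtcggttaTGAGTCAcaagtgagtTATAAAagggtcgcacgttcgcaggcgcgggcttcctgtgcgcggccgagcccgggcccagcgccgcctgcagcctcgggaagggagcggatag
Searched on both strands, AANNGAAA was in 22.8% of all promoters and in 15 of the 94 promoters of members, TGANTCA in 7.71% and 8 (8.51%), and TATAAA in 11.5% and 7 (7.45%). MIR155HG was the only member with all 3. Whether any of these letters are bound in NK92 was not measured.

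Of 45 lymphocyte and immune lncRNAs 12 were members, 4 higher and 8 lower with a median of -0.063, the same split under each of the 4 scalings. With TPM 1 was higher and 10 lower (median -0.099), where all genes with at least 1000 reads had a TPM median of -0.055. With the longest-transcript fit removed 3 were higher and 9 lower. The interval was wholly below 0 for MIR155HG, HCP5, BISPR, HCG18 and MIR4435-2HG and wholly above 0 for ITGB2-AS1. That is 5 and 1 of 12, and 8 of 12 were below 0. All genes with at least 1000 reads had 32.1%, 27.8% and 52.3%, and 12 genes are too few to set against these shares. HCP5, an RNA of the major histocompatibility complex (MHC) with an endogenous retroviral origin, had 8385 and 6597 reads (-0.23, -0.28 to -0.18). BISPR, which is induced by interferon together with BST2 from their shared promoter, had 1121 and 884 reads (-0.22, -0.35 to -0.097). BST2, the membrane protein tetherin, had 11448 and 11257 reads (0.093, 0.055 to 0.13). The RNAs that start from this promoter in opposite directions thus lay on opposite sides of 0. BISPR also shares an exon on its own strand with MVB12A, which starts 36 bases from it. MVB12A had 703 and 704 reads (0.12, -0.034 to 0.27). Reads in shared exons are divided by an estimate, so the ratio of BISPR alone is uncertain. ITGB2-AS1 had 687 and 743 reads (0.23, 0.079 to 0.38), and ITGB2, the beta chain of the leukocyte integrins, which it faces, had 25377 and 24084 (0.042). ITGB2-AS1 was at 0.11 with the fit removed and 0.13 with the longest-transcript fit removed, both within its interval.

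The other immune members had intervals that spanned 0. LINC02446, known from cytotoxic lymphocytes, had 5514 and 4904 reads (-0.052, -0.11 to 0.0039), and at 193 and 180 TPM it had the highest level of all members per length, above NORAD at 190 and 164 TPM and HCP5 at 158 and 130. The ratio of LINC02446 was -0.10 with TPM and -0.11, just outside its interval, with the longest-transcript fit removed. TRG-AS1, in the locus of the T cell receptor gamma chain, had 1589 and 1544 reads (0.076, -0.026 to 0.18). PRKCQ-AS1, beside the kinase gene PRKCQ, was at 0.031 (-0.068 to 0.13), and its sign turned with TPM (-0.038) and with the longest-transcript fit removed (-0.072). For none of these was a difference detectable at this depth by the interval on its reads.

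A position that several immune members share is the MHC. Between HLA-F and HLA-DPB1 on chromosome 6 of GRCh38.p14 lie 4 members, and all 4 were below 0. This group was formed after the values were seen, and 4 genes are too few to set against the 52.3% of all genes with at least 1000 reads that were below 0 and the 32.1% with an interval wholly below 0. From the telomeric side these were HCG18 at chr6:30287397-30327156 (3136 and 2647 reads, -0.13), HCP5 at chr6:31463180-31465809 (-0.23), PSMB8-AS1 at chr6:32844086-32846500 (1272 and 1144 reads, -0.036) and LOC100294145 at chr6:32894176-32903758 (2876 and 2480 reads, -0.096). For PSMB8-AS1, which lies beside the gene of an immunoproteasome subunit, the interval spanned 0 (-0.15 to 0.081). For the others it lay below 0. PSMB8 itself, on the other strand, had 13303 and 12922 reads (0.075, 0.040 to 0.11).

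Of 28 lncRNAs tied to p53 or DNA damage 5 were members: NORAD, NEAT1, PVT1, DLEU1 and DLEU2. NORAD was the only one with an interval off 0, and 4 of 5 were below 0 (all 5 with median-of-ratios scaling or TPM, and 3 with the fit removed), with a median of -0.037. Among all genes with at least 1000 reads 52.3% were below 0, and the interval lay wholly below 0 for 32.1% and wholly above for 27.8%. The 5 members are too few to set against these shares. DLEU1 and DLEU2, which lie head to head in a region of chromosome 13 often deleted in chronic lymphocytic leukaemia, summed to -0.039 (-0.093 to 0.014). No member of this list differed by as much as 1.5-fold.

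LOC100630923, the member with the highest ratio, is described in the table as a readthrough of LOC100289561 into PRKRIP1. It had 683 reads in the unexposed and 952 in the exposed library (14.6 and 22.1 CPM), a log2 fold change of 0.59 (interval 0.45 to 0.74), or 1.51-fold. The genes it joins went the other way: PRKRIP1, a splicing factor, had 1421 and 1017 reads (-0.36, -0.48 to -0.25) and LOC100289561 had 206 and 96 (-0.97, -1.35 to -0.63). Summed over the 3 genes the reads were 2310 and 2065, a log2 fold change of -0.044 (-0.13 to 0.042). The locus as a whole was thus level within counting error, and reads in shared exons are divided among these genes by an estimate, so the ratio of this member alone is uncertain.

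By the lower bound of the interval, CTBP1-DT and LINC01963 came next. CTBP1-DT, which starts 653 bases from the co-repressor gene CTBP1 on the other strand, had 989 and 1204 reads (0.40, 0.28 to 0.52). CTBP1 had 6229 and 6577 reads (0.20, 0.15 to 0.25), so both genes of this pair were higher. LINC01963 had 904 and 1055 reads (0.34, 0.21 to 0.47), with a GC content of 44.7%, at which most genes were lower. RPARP-AS1 had 527 and 625 reads (0.36, 0.19 to 0.53) and LOC105374809 had 697 and 767 (0.25, 0.11 to 0.41), both with intervals above 0. HEIH, first described in liver cancer, had 1094 and 1192 reads (0.24, 0.12 to 0.36; 0.11 with the longest-transcript fit removed), and PP7080 had 1444 and 1511 (0.18, 0.078 to 0.29; 0.022 with the fit removed). HEIH overlaps LINC00847, and the reads of both together gave 0.20 (0.11 to 0.29).

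LINC01145, just inside the threshold, was at 0.28 (0.11 to 0.47), but with 6 TPM in both libraries it was level on that scale. It was grouped with LINC00623, LINC00869 and LINC01138, also on chromosome 1, as possible copies, though their sequences were not compared here. LINC01138 was lower (-0.22, -0.40 to -0.036). The 4 genes summed to 2787 and 2613 reads, a log2 fold change of 0.024 (-0.053 to 0.10). Their sum was thus level within counting error. Whether reads were divided among them by an estimate was not examined, so the ratio of each alone may be uncertain.

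At the lower end, LOC108783654, now named HSD17B1-AS1, had 921 and 648 reads (-0.39, -0.54 to -0.24), or 1.31-fold lower. LOC101928451 had 766 and 549 reads (-0.36, -0.52 to -0.20) and LOC105371275 had 2020 and 1596 (-0.22, -0.32 to -0.13). Unlike the RNAs above, these have no well-known function. OTUD6B-AS1 had 2421 and 1841 reads (-0.28, -0.37 to -0.19), and OTUD6B, a deubiquitinase gene that starts 7 bases away on the other strand, had 3202 and 2770 (-0.092, -0.17 to -0.018). Both genes of this pair were lower. OTUD6B-AS1, at 36.1% GC in the range where most genes were lower, was at -0.13 with the fit removed and -0.17 with the longest-transcript fit removed, both outside its interval. Among the most-read members on none of the lists, LOC101927166 had 7241 and 6337 reads (-0.075, -0.12 to -0.026), LOC389602 had 4354 and 3544 (-0.18, -0.24 to -0.12) and OVAAL had 3895 and 3284 (-0.13, -0.20 to -0.062). All 3 were lower with intervals off 0.

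By kind of name, the 17 members with a LINC number had 10 higher and 7 lower (median 0.017) and the 18 with a LOC number 7 higher and 11 lower (-0.034). The 31 antisense members had 15 higher and 16 lower (-0.017), and the 4 divergent ones 3 higher and 1 lower (0.086). Of the 4 named as microRNA hosts, here MIR9-3HG in place of DLEU2, 1 was higher and 3 lower (-0.12). The 24 with other names had 7 higher and 17 lower (-0.062), and these include NORAD, NEAT1, MALAT1, HCP5 and TUG1. TUG1 and ERVK3-1 are lncRNAs in the deposited table and protein-coding genes in RefSeq GRCh38.p14. The 20 small nucleolar RNA host genes that were left out had a median of 0.090 with 7 lower, on the other side of 0 from the members, and the lncRNAs with at least 100 but fewer than 1000 reads had a median of 0.016.

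Whether a member differed in the same direction as its neighbour was examined in gene pairs. By GENCODE 29, 33 members start within 1000 bases of a protein-coding gene on the opposite strand, head to head, and in 31 of these pairs the neighbour had at least 1000 reads. Of these pairs 18 had the same sign and 13 opposite signs, and across pairs, which are not independent replicates and share both libraries, Pearson's r was 0.22 and Spearman's rho 0.17. In 8 pairs both intervals were off 0, 5 with the same sign and 3 with opposite signs. CTBP1-DT was higher with CTBP1, and OTUD6B-AS1, RNASEH1-AS1, GABPB1-AS1 and PSMA3-AS1 were lower with OTUD6B, RNASEH1, GABPB1 and ARID4A. TUG1 and BISPR were lower while MORC2 and BST2 were higher, and UBA6-AS1 was higher (0.15, 0.010 to 0.29) while UBA6, an enzyme that activates ubiquitin, was lower (-0.20, -0.29 to -0.12). Of the 5 pairs with the same sign, CTBP1-DT, RNASEH1-AS1 and GABPB1-AS1 also overlap their neighbours on the other strand, where reads of either gene may not have been kept apart. A shared start thus went with either outcome in these libraries.

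**Figure D4:**
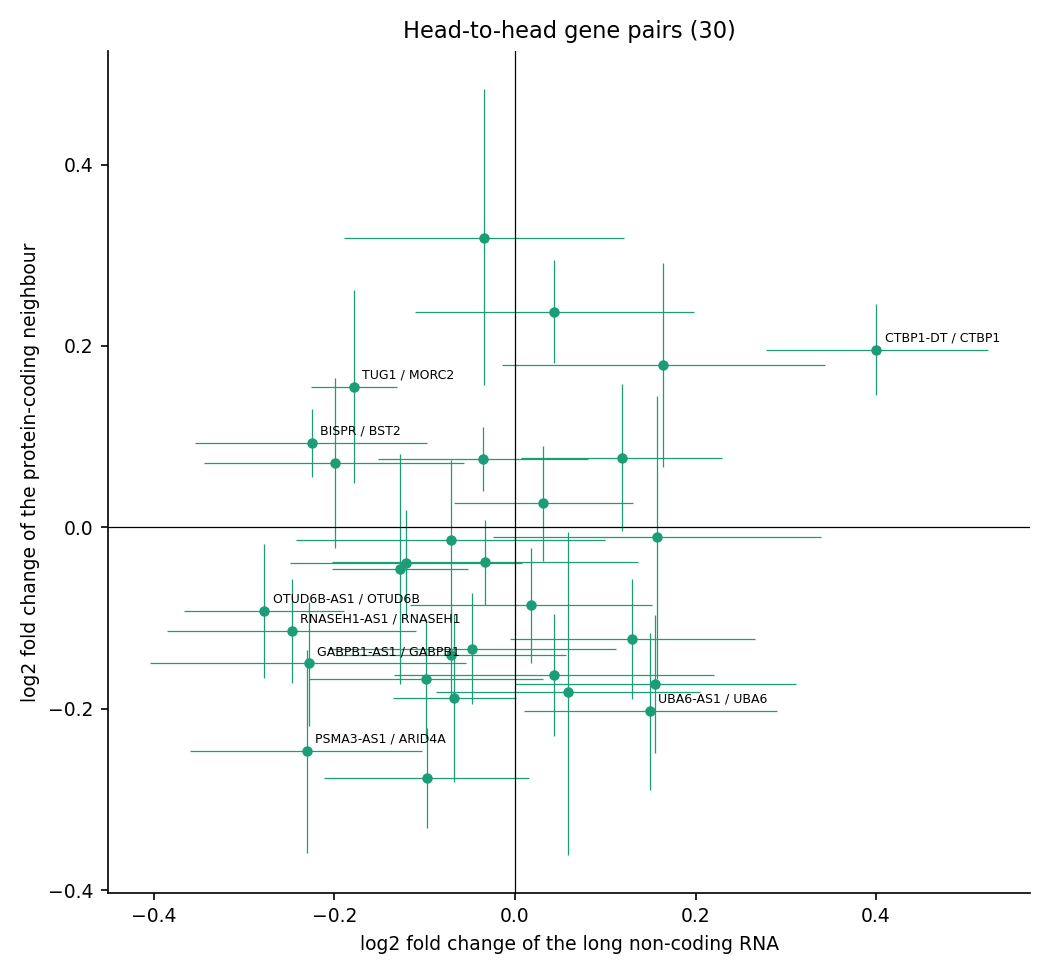
Log2 fold change of the protein-coding neighbour (vertical axis) against that of the member (horizontal axis) in 30 of the 31 head-to-head pairs, with bars for the 95% counting intervals and names for the 8 pairs with both intervals off 0. Points lie on all sides of the origin, and CTBP1-DT is the only named member that is higher together with its neighbour.

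By symbol, 42 members are named for a partner gene, and in 29 such pairs the partner had at least 1000 reads, 16 with the same sign and 13 with opposite signs (r 0.11). Both intervals were off 0 in 8 of them, 6 with the same sign and 2 with opposite signs. Among members that overlap a gene on the other strand, 34 pairs had enough reads, 22 with the same sign and 12 with opposite signs (r 0.28). Here 9 pairs had both intervals off 0, 8 with the same sign and 1, OIP5-AS1 with OIP5, with opposite signs. The kit marks the strand, but the strand setting of the counting is not given in the sources used here, so for overlapping pairs reads of a gene and its antisense RNA may not have been kept apart. Same-sign pairs among these are therefore read with that limit.

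The members shared with other genes a trend of fold change with base composition. GC content and length were known for 82 of the 98 members (83.7%). Across these, log2 fold change and GC content had a Pearson's r of 0.44 and a Spearman's rho of 0.41, and across 8296 genes with at least 1000 reads 0.49 and 0.53; genes are not independent replicates, and all share both libraries. With median transcript length Spearman's rho was -0.30 across these genes and -0.0049 across the members. With the longest transcript it was -0.46 and -0.14, of the same sign in both and smaller in the members. This difference was not tested, and the fit removed here is on both length and GC content. Split by GC content into 3 groups, 20 of 28 members were lower in the lowest group (34.2% to 45.2%), 15 of 27 in the middle group and 10 of 27 in the highest (51.1% to 63.8%), with medians of -0.050, -0.050 and 0.044. All genes in the same ranges had medians of -0.092, -0.023 and 0.070. MIR155HG (37.8% GC), MALAT1 (39.3%), NORAD (41.6%) and TUG1 (41.8%) lie at the low end, and CTBP1-DT (59.2%), HEIH (58.9%) and PP7080 (63.8%) at the high end, each on the side of 0 to which other genes of that GC content lean. LINC01963 and HCP5 (50.7% GC) lie away from that trend. With the fit removed, MIR155HG (-0.27), MALAT1 (-0.21) and CTBP1-DT (0.32) stayed within their counting intervals. NORAD (-0.028), TUG1 (-0.066) and PP7080 (0.022) lay nearer to 0 and outside theirs. This fit takes MALAT1 at a median length of 480 bases, while its longest transcript has 8708. With the longest-transcript fit removed MALAT1 was at -0.11, outside its interval. OIP5-AS1 is at 46.4% GC by the median of its transcripts and at 38.4% by its longest, so its place against the trend depends on that choice. The cause of the trend was not tested.

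**Figure D5:**
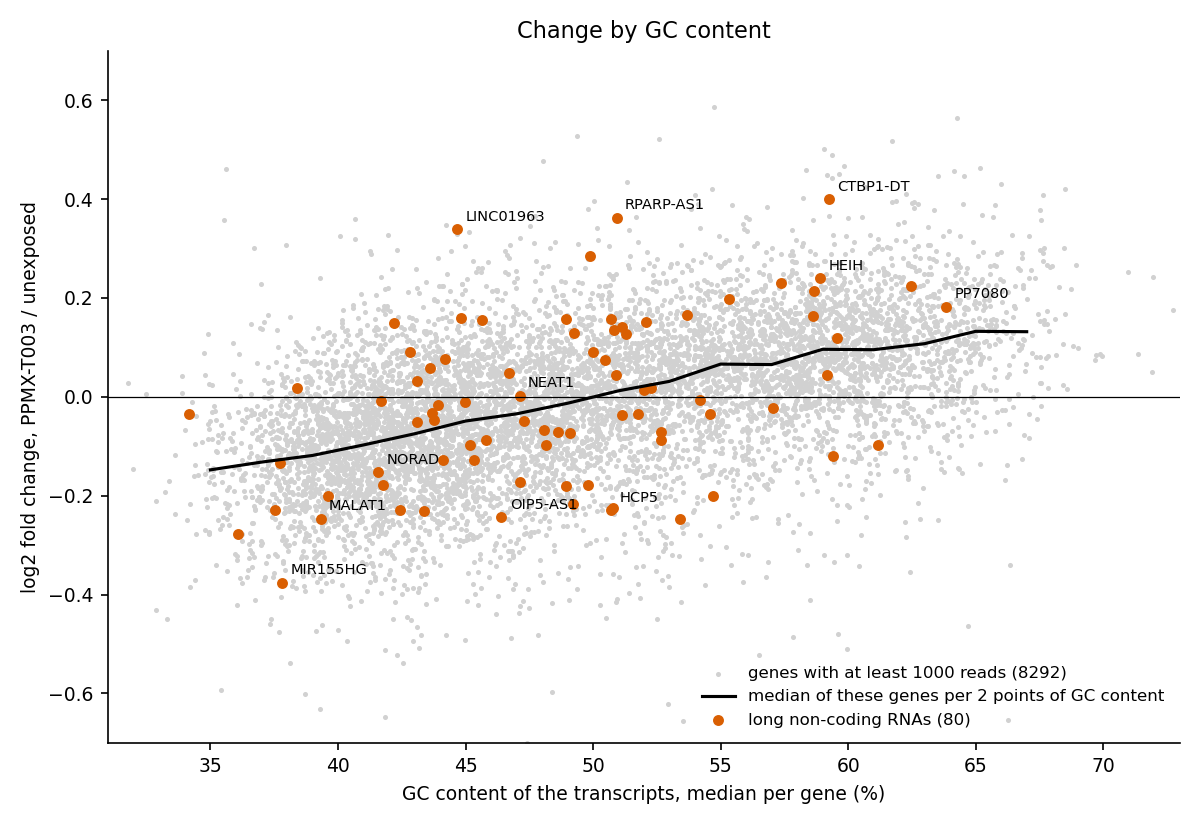
Log2 fold change (vertical axis, PPMX-T003 over unexposed) against the median GC content of a gene's transcripts (horizontal axis, percent) for 80 members in orange and 8292 genes with at least 1000 reads in grey, with the median of these genes per 2 points of GC content as a line; 17 genes lie outside the plotted range of 0.7. The line passes from below to above 0 as GC content goes up, and MIR155HG and OIP5-AS1 lie below it while CTBP1-DT and LINC01963 lie above it.

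After removal of the fit on GC content and length, the median of the 82 members was -0.024 and 45 of them were below 0. The members' transcripts had a median length of 931 bases, against 1768 for protein-coding genes with at least 1000 reads, and a median GC content of 49.0%. The lowest ratios were those of LOC108783654, MIR155HG and LOC101928451, none of them among the 10 most-read members.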

How the data were processed

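RNA from 2 dishes of NK92 cells was sequenced (TruSeq Stranded mRNA, NovaSeq6000), 1 library per condition. The authors trimmed reads with Trimmomatic 0.38, mapped them to hg38 with HISAT2 2.2.0, counted them with StringTie 2.1.3b and named edgeR 3.17 for the comparison. The deposited counts are reads per gene, not scaled between libraries, written with commas as separators, which were removed. FPKM and TPM, which the authors deposited without decimals, are treated as a score, and FPKM was not used. StringTie divides reads in shared exons by an estimate.

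Totals of 46766416 and 43178462 reads were scaled by TMM (trimming 30% of the log ratios and 5% of the mean levels; both factors 1.00), and log2 CPM was computed with a prior count of 2. The design named another tool for these steps, and they were done in Python (3.11.15) using scipy 1.17.1, numpy 2.4.6, statsmodels 0.14.6, pandas 2.3.3 and matplotlib 3.10.9. No count model was fitted and no p-value computed. Intervals are 95% Clopper-Pearson intervals. A library with no more than 3 reads was taken as not detecting a gene. Length and GC content are medians over a gene's transcripts in GENCODE 29, an annotation other than that of the counts, and the robust fit used 10160 genes with at least 200 reads. Names, positions, promoters and microRNAs came from RefSeq GRCh38.p14. The steps were tested on simulated data.

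Named were all listed lncRNAs among the members, the 10 with the most reads, the 10 higher and 10 lower ones by the interval bound nearest to 0, those past 1.5-fold, those beside the threshold, partners of antisense and divergent members, and 3 genes per protein list by the same bound. Genes of the MHC, head-to-head neighbours and genes joined by a readthrough were named after their values were seen. CHD2, the downstream neighbour of CHASERR, falls under none of these rules. The levels of 2 members and 3 other genes are not reported here, although they enter the counts, sums and medians. The members and lists were chosen with earlier results of these data known. Alternatives were scaling by library size, upper quartile and median of ratios, a prior count of 0.5 or 5, TPM with a pseudocount of 1, 500 or 2000 reads for a member, a smaller (25% more or 20% less) and a larger (2-fold) size of change, members without shared exons and the fit removed.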

Additional observations from a re-analysis of the deposited data

How the results depend on the processing

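No paired analysis was possible because there is 1 library on either side. Under the 3 other scalings and prior counts of 0.5 and 5, the median of the members stayed between -0.037 and -0.016. The 1 member at least 1.5-fold higher, LOC100630923, was under that size with the deposited TPM (0 members), and 0 members were past 2-fold. With 1635 reads and no length or GC content it could not be counted from 2000 reads on or with the fit on length and GC content removed (82 members), so the 0 members found in those settings say nothing about it. By the smaller measure of 25% more or 20% less, 4 were higher and 3 lower in place of 0. In settings chosen after seeing the data, 0 were at least 1.5-fold higher without LOC100630923, with only the 82 members of known length and GC content, and after a fit with the longest transcripts was removed, and none of these settings holds that gene. With TPM the median was -0.077 in place of -0.028, where the median of all genes with at least 1000 reads was -0.055. In place of 55 of 98 members, 102 of 187 were below 0 from 500 reads on, 30 of 45 (66.7%) from 2000 reads on, and 32 of 68 (47.1%) without members that share exons on the same strand. Shared exons were looked up in GENCODE 29, so the 16 members without a gene there, LOC100630923 among them, could not be checked and were kept. Without the 30 that share exons the median was 0.018, on the other side of 0, and with only the 19 that share exons with genes other than small RNAs left out, a setting chosen after seeing the data, it was -0.0099; the cause was not tested. Of 42 named members 7 lay outside their counting interval with TPM, 2 had the other sign and 2 were at 0. After removal of the fit on length and GC content, 8 of 36 lay outside it and 1 had the other sign, and with the longest-transcript fit 9 and 3. Of the genes with at least 20 reads, 3.94% were at least 1.5-fold higher and 3.84% lower, against 0.0619% and 0.260% of protein-coding genes with at least 1000. Depth limits the members near the threshold: the interval of LINC01138, with 1002 reads, runs from -0.40 to -0.036.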
